A study of Mus musculus with 4 samples.

Results

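The genes described here make, import and charge amino acids in female mouse embryonic stem cells (ESCs). They are 45 genes in 3 lists, namely 20 cytosolic tRNA synthetases, 16 enzymes of amino acid synthesis and one-carbon metabolism and 9 amino acid transporters, taken by symbol from the deposited RNA-Seq tables. Of the 45, 41 had a value among the 9779 genes of the tables with a value, which are 18 synthetases, 15 enzymes and 8 transporters. *Farsa*, *Hars*, *Pycr1* and *Slc7a3* were not analysed here. The cells were of the LF2 line, of 129/J strain origin, and were grown on feeder cells and then passaged off them before treatment. For 24 hr they received PBS or 50 µg/ml L-ascorbic acid (AA), together with DMSO or 10 µM GSK-J4, an inhibitor of JmjC histone demethylases. The 4 conditions are called PBS+DMSO, PBS+GSK-J4, AA+DMSO and AA+GSK-J4, where PBS and DMSO are the vehicles. Each condition was 1 library of total RNA from 1 cell line, so no difference has a replicate check and no p-value is given.

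A tRNA synthetase joins an amino acid to its tRNA, and the charged tRNA then delivers it to the ribosome. Serine is made from a glycolytic intermediate by *Phgdh*, *Psat1* and *Psph*, and the serine hydroxymethyltransferases and folate enzymes pass its carbon on to nucleotide synthesis and methylation. When uncharged tRNA or misfolded protein accumulates, the kinases of the integrated stress response phosphorylate eIF2 alpha, and the transcription factor *Atf4* is then translated and binds C/EBP-ATF response elements near many genes of these 3 kinds.

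Values are FPKM, in which the fragments of a gene are divided by the length of its exons and by the number mapped per library. Levels can thus be set roughly side by side between genes. Duplicate reads were removed before FPKM was computed, and the effect of this on strongly expressed genes was not tested. The values of the 4 libraries are listed in the order of the conditions above. A log2 ratio here is that of FPKM plus a pseudocount of 1, which understates the difference for weakly expressed genes. Genes enter a comparison when FPKM was at least 1 in either library, and a gene is called at a difference of at least 2-fold in this ratio, a threshold of size and not a test. The FPKM of all genes summed to between 271205 and 360621 per library, with the lower sums in the GSK-J4 libraries. The median log2 ratio of all genes tested for GSK-J4 was -0.17 without AA and -0.16 when AA was present. All 10 ESC markers looked for were present, at 23.5 to 867 FPKM. As deposited, all 10 were lower with GSK-J4 without AA, with a median log2 ratio of -0.55, and 9 of 10 with AA, with -0.52, and against the median of equally expressed genes 5 of 10 were lower in each comparison. Their part in the results below was not tested. Of 10 feeder fibroblast markers, 3 (*Col1a1*, *Col1a2* and *Thy1*) had a row, at 1.78 to 4.28 FPKM, with sums of 7.54 to 8.85 per library, and the other markers were not analysed. In bulk RNA, fewer cells of a type and less RNA per cell cannot be told apart.

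Promoter sequence is shown first because the C/EBP-ATF element is the motif that these 3 kinds of genes are known for. RefSeq promoter windows on GRCm38.p6, from 250 bases before to 50 after a start site, were given for 32 of the 45 genes, and 30 of these 32 genes also had an FPKM value. The letters TGATGNAA, with N any base, were looked for on both strands, and no other motif was searched. They occurred for 9 of the 30 genes with a value, or 30%, against 2.44% of the 7495 genes of the tables that have a window. Of all 27025 genes with a window, 4.51% had them. Counted by window and not by gene, 3.97% of all 32851 windows held them. By list they occurred for 5 of 11 synthetases, 2 of 13 enzymes and 2 of 6 transporters. Stretches that hold matches are given below, each printed along the strand on which the motif reads TGATGNAA, with the motif in capitals and 10 bases on either side. The start site is that of the RefSeq window, which for some genes lies inside the gene as GENCODE places it, as for *Asns* and *Aars*, so before and after hold for the RefSeq start alone.
*Aars*, after the start site (chr8:111033841-111033868, minus strand): cagagcgctcTGATGAAAagtgacccgc
*Asns*, before the start site (chr6:7693215-7693242, minus strand): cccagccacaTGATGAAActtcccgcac
*Gars*, before the start site (chr6:55037961-55037988, minus strand): gcccggtgcaTGATGAAAtagcgcagcc
*Got1*, before the start site (chr19:43524690-43524717, plus strand): gaggcttgtaTGATGCAAccaatgcaat
*Iars*, after the start site (chr13:49682127-49682154, minus strand): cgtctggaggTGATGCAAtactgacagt
*Slc1a4*, across the start site (chr11:20332700-20332727, plus strand): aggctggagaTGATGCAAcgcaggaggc
*Slc7a11*, before the start site (chr3:50443643-50443670, plus strand): ggctgcatgaTGATGCAAattctccagg
*Slc7a11*, before the start site (chr3:50443662-50443689, minus strand): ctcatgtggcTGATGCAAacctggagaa
*Tars*, before the start site (chr15:11399656-11399683, plus strand): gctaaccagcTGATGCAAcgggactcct
*Yars*, after the start site (chr4:129189896-129189923, plus strand): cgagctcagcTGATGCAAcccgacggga

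For *Asns*, a gene long studied for this element, 250 bases of the window are given with the motif in capitals, near the downstream end.
*Asns* promoter (chr6:7693210-7693459, minus strand): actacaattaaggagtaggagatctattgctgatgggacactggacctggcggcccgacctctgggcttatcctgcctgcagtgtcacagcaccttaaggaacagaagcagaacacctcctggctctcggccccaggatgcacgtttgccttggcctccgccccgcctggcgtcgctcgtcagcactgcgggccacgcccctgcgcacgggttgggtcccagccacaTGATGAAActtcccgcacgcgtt
Among the genes that have a window, those with and without the letters did not separate by their GSK-J4 ratio. Among the genes that passed the filter on FPKM, the median log2 ratio without AA was 0.08 in the 8 genes with a match, with a range of -0.58 to 1.38, and 0.16 in the 21 genes without one, with a range of -0.97 to 1.88. With AA the medians were 0.17 and 0.22. *Slc7a11*, which holds the letters, did not pass the filter. *Cars*, *Cth* and *Aldh1l2*, at least 2-fold higher with GSK-J4 in both comparisons below, had no window and are not in these medians. *Slc6a9* and *Kars*, the genes at either end of these ranges, both lacked the letters in their windows.

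In PBS+DMSO the 18 synthetases were expressed at 17.0 to 238 FPKM, with a median of 82.2. *Kars* was the highest of them at 238 FPKM and *Cars* the lowest at 17.0. The 15 enzymes ranged more widely, from 0.546 FPKM for *Aldh1l2* to 139 for *Psat1*, with a median of 36.3. The 8 transporters lay between 0.0325 FPKM for *Slc7a11* and 88.9 for *Slc38a2*, with a median of 11.2. As deposited, the median level of the synthetases was lower after GSK-J4, at 59.3 FPKM in PBS+GSK-J4 and 63.4 in AA+GSK-J4 against 79.2 in AA+DMSO. The median level of the enzymes was higher, at 60.9 and 67.0 FPKM against 33.7 in AA+DMSO, and so was that of the transporters, at 21.1 and 22.4 against 13.5. As shares of all FPKM, the 41 genes together made up 0.697% with DMSO and 0.876% with GSK-J4 in the absence of AA, and 0.731% and 0.951% in its presence.

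**Figure D1:**
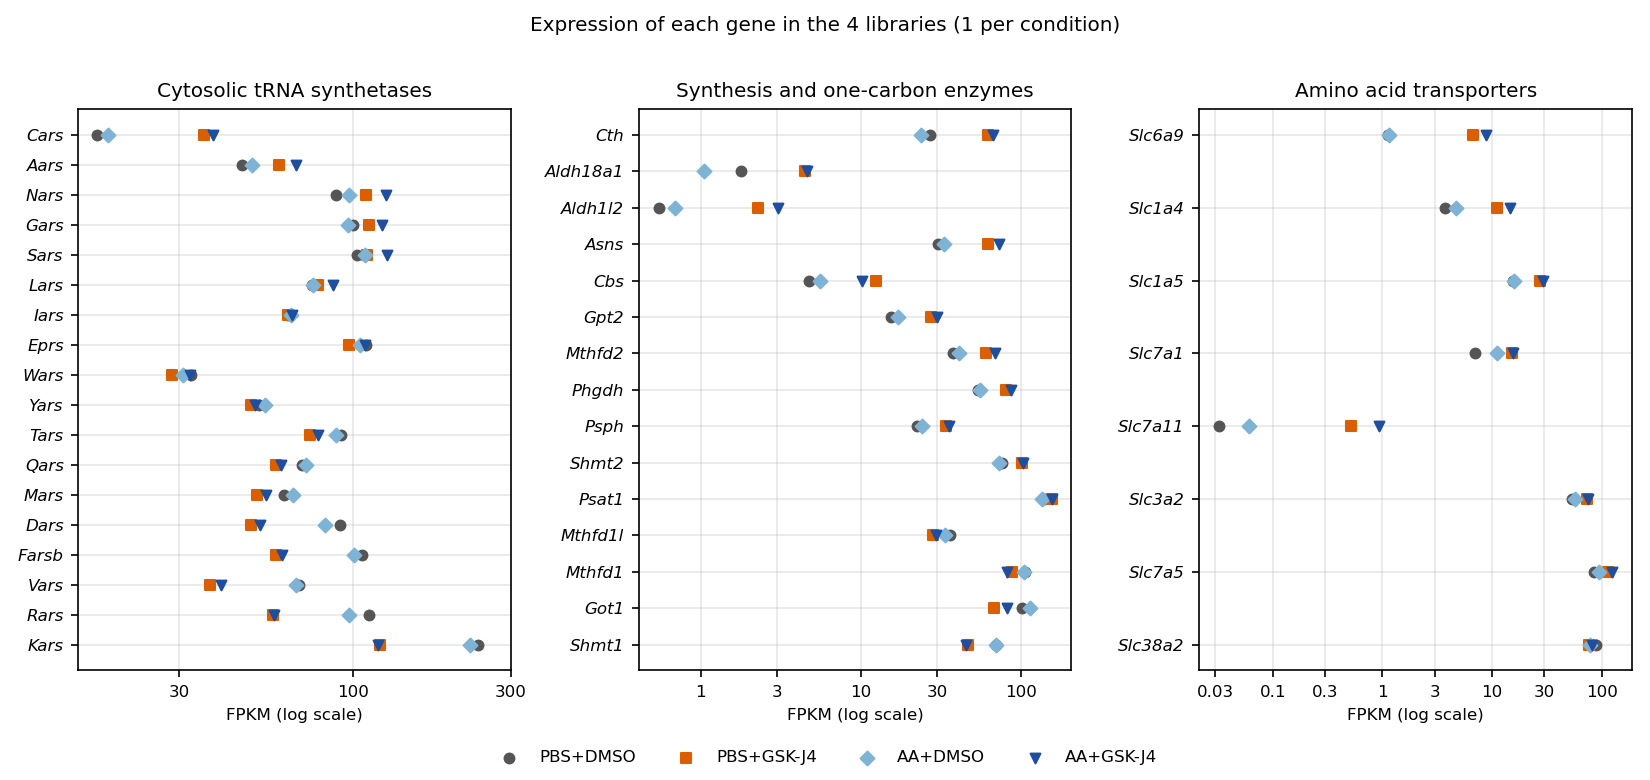
FPKM of the 41 genes with a value, on a log scale, in each of the 4 libraries, with 1 panel per list and 1 marker per library. Cars at the top and Kars at the bottom of the synthetase panel move in opposite directions between the DMSO and GSK-J4 libraries, and Slc6a9 and Slc7a11 show the widest gaps among the transporters.

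With GSK-J4 without AA, 8 of the 40 genes tested were at least 2-fold higher than with DMSO, or 20% of them, where 4.96% of all 9196 genes tested were. None was at least 2-fold lower, where 3.50% of all genes were. With AA, 7 of 40 were at least 2-fold higher, or 17.5%, against 4.13% of 9139 genes, and none was lower, against 3.38%. These comparisons share no library, and 6 of the genes were called in both. The members and lists were chosen with earlier results of these data known, so the gap to the share of all genes is not an independent result. By list, 4 of 15 enzymes, 3 of 7 transporters and 1 of 18 synthetases were called without AA, and 4, 2 and 1 with AA. The counts include *Aldh1l2*, which passed the filter through its GSK-J4 libraries alone. Where FPKM had to be at least 1 in the DMSO library, a setting chosen after seeing the data, 7 of 39 were called higher without AA and 6 with AA, against 3.11% and 2.56% of all genes. The remaining gene, *Slc7a11*, was below 1 FPKM in all libraries and was not tested.

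Among the cytosolic synthetases, *Cars* alone was called, and the list was otherwise split into genes near no difference and genes between 1.5-fold and 2-fold lower. *Cars*, on chromosome 7 at 143557230 to 143600090 of GRCm38 on the minus strand, charges tRNA with cysteine. It was at 17.0 FPKM with DMSO and 35.6 with GSK-J4 in the absence of AA, and at 18.3 and 38.0 in its presence. Both GSK-J4 libraries were above both DMSO libraries, by a log2 ratio of 1.02 without AA and 1.02 with AA. These ratios sit just past the threshold, and the call without AA was absent when the coding sequence group with the highest level alone was used. Next came the alanine enzyme *Aars* at 46.5, 59.9, 49.9 and 67.5 FPKM in the same order of libraries, with log2 ratios of 0.36 and 0.43. The asparagine enzyme *Nars* was at 89.1, 109.6, 97.8 and 126 FPKM, with log2 ratios of 0.30 and 0.36. Both were higher with GSK-J4 in each comparison without reaching 2-fold. *Aars* shares 23.1% of its exonic bases with *Exosc6* on the same strand, and reads in that stretch cannot be assigned to 1 of them by position.

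At the other end of the list were 5 of the 18 synthetases that were at least 1.5-fold lower with GSK-J4 in both comparisons. Of all genes tested, 19.3% without AA and 17.8% with AA were that far lower. Among equally expressed genes, the 5 stood between percentiles 10.1 and 23.4 without AA and between 11.9 and 37.7 with AA. *Kars*, the lysine enzyme, on chromosome 8 at 111993443 to 112011323 of GRCm38 on the minus strand, was at 238 FPKM with DMSO and 121 with GSK-J4 in the absence of AA, and at 226 and 119 in its presence. Its log2 ratios were -0.97 without AA and -0.92 with AA, and both GSK-J4 libraries were below both DMSO libraries. The tables divide *Kars* into 2 coding sequence groups. The more abundant group was at 206, 97.5, 192 and 97.00 FPKM, with log2 ratios of -1.07 and -0.98, and the other at 31.6, 23.8, 34.3 and 22.1 FPKM, with -0.40 and -0.62. The arginine enzyme *Rars* was at 112, 57.6, 97.7 and 58.0 FPKM, with log2 ratios of -0.95 and -0.74. The valine enzyme *Vars* was at 69.0, 37.2, 67.3 and 40.1 FPKM, with -0.87 and -0.73. The aspartate enzyme *Dars* (-0.88 and -0.64) and *Farsb*, a subunit of the phenylalanine enzyme (-0.85 and -0.71), were the remaining genes of the group. The ratios of all 5 stayed below 0 in both comparisons under every scaling tried, at -0.11 or below. The other 12 synthetases had log2 ratios between -0.31 and 0.36 without AA and between -0.26 and 0.43 with AA.

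Several cytosolic synthetases are held together in the multisynthetase complex. The 8 of them measured here (*Dars*, *Eprs*, *Iars*, *Kars*, *Lars*, *Mars*, *Qars* and *Rars*) are a subset chosen after the values were seen. Their median log2 ratio was -0.26 in both comparisons as deposited. The 10 synthetases outside it had medians of 0.01 and 0.14, and values in both subsets overlapped. Against the median of equally expressed genes, *Dars*, *Kars* and *Rars* lay below it in both comparisons and the others of the complex above it. Outside the complex, *Farsb* and *Vars* lay below it and the others above it. The genes of the complex's scaffold proteins had lower FPKM after GSK-J4 as deposited and under the 3 scalings of whole libraries described below. Log2 ratios as deposited were -0.46 and -0.41 for *Aimp1*, -0.80 and -0.84 for *Aimp2* and -0.96 and -0.78 for *Eef1e1*. None of these 3 was called, and against the median of equally expressed genes 1 of the 3 lay above it.

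Among the enzymes, the genes called were *Asns*, *Cth* and *Aldh1l2* in both comparisons, *Cbs* without AA and *Aldh18a1* with AA. *Asns*, asparagine synthetase, on chromosome 6 at 7675169 to 7693254 of GRCm38 on the minus strand, whose promoter is printed above, was at 30.2 FPKM with DMSO and 62.8 with GSK-J4 in the absence of AA, and at 33.1 and 73.1 in its presence. Its log2 ratios were 1.03 without AA and 1.12 with AA. Both GSK-J4 libraries were about 2-fold above their DMSO libraries. *Cth*, which makes cysteine from cystathionine, was at 26.9, 62.1, 23.9 and 67.0 FPKM in the same order, with log2 ratios of 1.17 and 1.45. *Cbs*, the enzyme before it in the same route, was at 4.78, 12.5, 5.57 and 10.2 FPKM, with log2 ratios of 1.23 and 0.77, so it was called without AA alone. Its less abundant coding sequence group went the other way, at 0.954, 0.00472, 0.847 and 0.121 FPKM.

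*Aldh1l2*, the mitochondrial formyl-tetrahydrofolate dehydrogenase, was at 0.546, 2.29, 0.696 and 3.03 FPKM, with log2 ratios of 1.09 and 1.25. It passed the filter through its GSK-J4 libraries alone, so it could not have been called lower. It shares 17.3% of its exonic bases with *D10Wsu102e* on the opposite strand. *D10Wsu102e* was at 22.1, 15.4, 19.8 and 13.9 FPKM, and the part of this overlap in the *Aldh1l2* values was not tested. *Aldh18a1*, which makes the precursor of proline, was at 1.79, 4.51, 1.05 and 4.61 FPKM, with log2 ratios of 0.98 and 1.45, and was called with AA alone. Of its 4 libraries, the GSK-J4 values were close to each other and the DMSO values differed.

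The serine route was higher with GSK-J4 in both comparisons, with no step called. *Phgdh*, the first enzyme, was at 54.4, 81.1, 55.4 and 86.4 FPKM, a log2 ratio of 0.57 without AA and 0.63 with AA. *Psat1*, the second, was at 139, 156, 136 and 156 FPKM, a log2 ratio of 0.16 and 0.20. *Psph*, the last, was at 22.4, 34.1, 24.3 and 35.6 FPKM, a log2 ratio of 0.59 and 0.54. The middle step thus differed least of the 3 and had the highest level. *Psph* shares 26.1% of its exonic bases with a transcript of *Cct6a* on the opposite strand.

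Folate enzymes of the mitochondria and the cytosol mostly lay on opposite sides of 0 as deposited. Of the mitochondrial enzymes, *Shmt2* was at 76.8, 102, 72.8 and 103 FPKM, with log2 ratios of 0.40 and 0.50, and *Mthfd2* at 37.7, 60.9, 41.3 and 69.4 FPKM, with 0.68 and 0.73. Of the cytosolic enzymes, *Shmt1* was at 70.1, 47.1, 69.8 and 45.6 FPKM, with log2 ratios of -0.56 and -0.60, and *Mthfd1* at 107, 88.7, 105 and 82.2 FPKM, with -0.27 and -0.34. The direction did not follow the compartment throughout, since the mitochondrial *Mthfd1l* was lower with GSK-J4, with log2 ratios of -0.35 and -0.17. The values for *Mthfd1* and *Mthfd1l* depended on the scaling, reaching as high as 0.32 and 0.19 for *Mthfd1* and 0.11 and 0.24 for *Mthfd1l*. Those for *Shmt1* reached 0.03 and -0.07, when the median of equally expressed genes was subtracted. Of the alanine and aspartate transaminases among the 15 enzymes, the mitochondrial *Gpt2* was at 15.4, 27.5, 17.2 and 29.96 FPKM, with log2 ratios of 0.79 and 0.77, and the cytosolic *Got1* at 102, 67.8, 114 and 82.3 FPKM, with -0.58 and -0.46, which were 0.01 and 0.07 against the median of equally expressed genes. Transaminases of the wider pathway lists, chosen after their values were seen, did not follow the compartment. The mitochondrial ones had log2 ratios as deposited of -0.67 and -0.66 (*Got2*), -0.67 and -0.68 (*Bcat2*) and 0.13 and 0.36 (*Oat*). The cytosolic *Bcat1* had 0.07 and 0.19, and the cytosolic *Gpt* was near the filter, at 0.837, 0.934, 0.630 and 1.005 FPKM. Against the median of equally expressed genes, *Got2* had -0.08 and -0.12, *Bcat2* -0.21 and -0.27, *Oat* 0.40 and 0.60 and *Bcat1* 0.65 and 0.73.

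The transporters had the widest difference of all members. *Slc6a9*, a sodium- and chloride-dependent glycine transporter on chromosome 4 at 117834506 to 117875198 of GRCm38 on the plus strand, was at 1.11 FPKM with DMSO and 6.76 with GSK-J4 in the absence of AA, and at 1.15 and 8.82 in its presence. Both GSK-J4 libraries were far above both DMSO libraries, with log2 ratios of 1.88 without AA and 2.19 with AA, or 6.07-fold and 7.70-fold by FPKM with no pseudocount. *Slc6a9* shares 38.8% of its exonic bases with *Ccdc24* and 13.9% with *Gm17114*, both on the opposite strand. Whether the counting used strand is not given in the sources used here. The part of these overlaps in the *Slc6a9* values was not tested. The neutral amino acid transporter *Slc1a4* was at 3.70, 11.2, 4.71 and 14.4 FPKM, with log2 ratios of 1.38 and 1.43. Its relative *Slc1a5*, a glutamine transporter, was at 15.4, 27.0, 16.0 and 29.3 FPKM, with log2 ratios of 0.78 and 0.83. The cationic amino acid transporter *Slc7a1* was at 7.05, 15.1, 10.99 and 15.5 FPKM, and its log2 ratios were 1.003 and 0.46, so it was called without AA alone. Its GSK-J4 libraries were alike, and AA+DMSO lay between them and PBS+DMSO.

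The remaining transporters were called in neither comparison. *Slc7a5* and *Slc3a2* form the light and heavy chain of a carrier of large neutral amino acids. *Slc7a5* was at 85.7, 113, 94.5 and 125 FPKM, a log2 ratio of 0.40 in both comparisons, and *Slc3a2* at 53.4, 73.0, 57.5 and 74.5 FPKM, with 0.44 and 0.37. The genes of the carrier's chains were thus higher with GSK-J4 by similar amounts. *Slc38a2*, a sodium-coupled transporter of small neutral amino acids, was at 88.9, 76.0, 78.4 and 81.5 FPKM, with log2 ratios of -0.23 and 0.06, the former above 0 after upper quartile or total scaling. *Slc7a11*, the cystine-glutamate exchanger, was at 0.0325, 0.519, 0.0613 and 0.930 FPKM. Its GSK-J4 libraries were above its DMSO libraries, but at levels below the filter no fold is given.

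**Figure D2:**
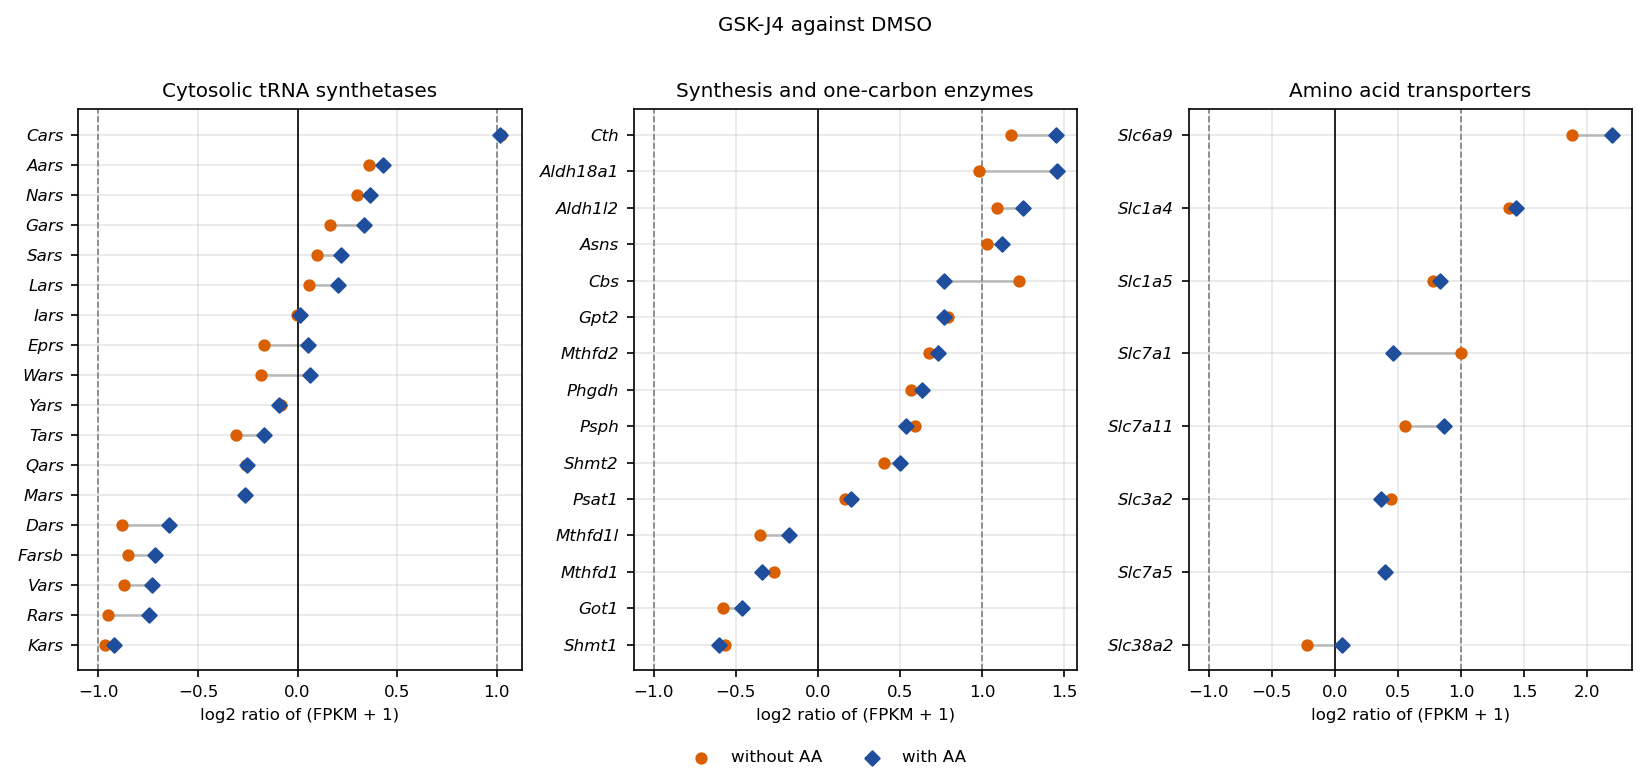
Log2 ratio of FPKM plus 1 for GSK-J4 against DMSO, without AA and with AA, for the 41 genes with a value in 3 panels, with dashed lines at the 2-fold threshold and no error bars because each condition was 1 library. The points without and with AA lie close together for most genes, the 5 lowest synthetases lie nearest the lower line, inside it, and Slc6a9 stands farthest right at 1.88 and 2.19. Slc7a11 was below the filter on FPKM.

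The direction for the synthetases as a list depended on how the libraries were scaled, and that for the enzymes and transporters did not. As deposited, the median log2 ratio without AA was -0.18 for the synthetases, 0.59 for the enzymes and 0.78 for the transporters. With AA these medians were -0.04, 0.63 and 0.46. The synthetase median without AA was -0.00 after centring on the median of all genes, 0.10 after division by the upper quartile and 0.20 after scaling to the same total. With AA the same settings gave 0.12, 0.21 and 0.29. The number of synthetases above 0 without AA went from 6 of 18 as deposited to 9, 12 and 13. Scaling to the upper quartile moved the median of all genes from -0.17 to 0.07 in the absence of AA and from -0.16 to 0.07 in its presence. Under all 3 settings the enzyme and transporter medians were above that of all genes.

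Most members are strongly expressed, and strongly expressed genes as a whole had lower ratios with GSK-J4. When the genes tested were put in 10 groups of equal size by mean expression, 21 members without AA and 23 with AA fell in the highest group. The median log2 ratio of all genes in that group was -0.59 without AA and -0.53 with AA. That of the lowest group was 0.30 and 0.26. In the highest group 1.196% of genes without AA were called higher and 10.7% lower, and with AA 1.09% and 7.002%. Against the median of their own expression group, 35 of 40 members lay above it without AA and 34 with AA. For the synthetases these counts were 13 and 13 of 18, for the enzymes 15 and 14 of 15, and for the transporters 7 and 7 of 7. Of the 40, 6 without AA and 8 with AA were at or above the upper end of the band that holds the central 95% of their group.

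**Figure D3:**
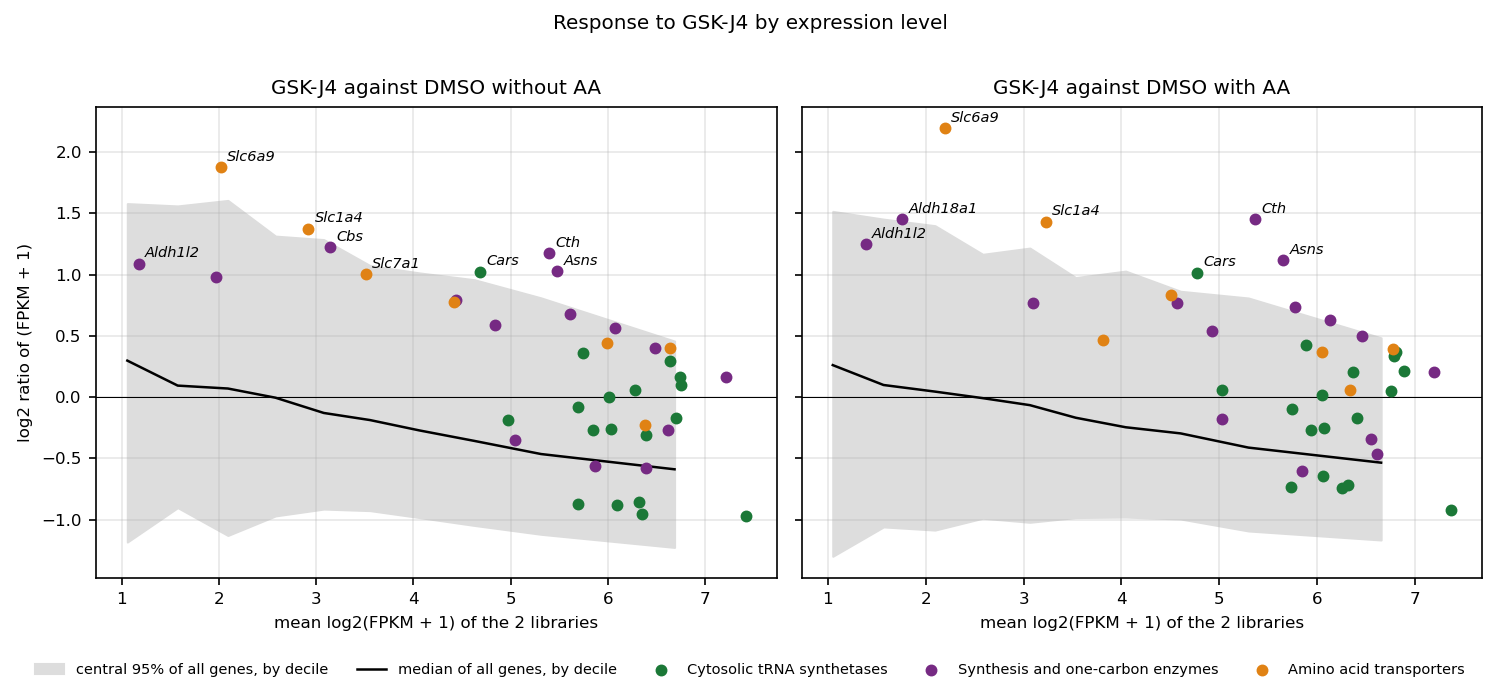
Log2 ratio of FPKM plus 1 for GSK-J4 against DMSO plotted against mean expression on the log2 scale, without AA and with AA, with members as coloured points by list, the median of all genes by expression group as a black line and the central 95% of each group in grey. From the lowest to the highest expression group, the line goes from 0.30 to -0.59 without AA and, in the other panel, from 0.26 to -0.53, and 35 and 34 of the 40 members lie above the median of their group.

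AA had smaller differences, and no member was called for it. With DMSO, 0 of 39 members tested were at least 2-fold higher or lower for AA against PBS, where 0.565% of 8843 genes were higher and 0.735% lower. With GSK-J4, 0 of 40 were, where 0.512% of 9180 genes were higher and 0.599% lower. The AA and GSK-J4 comparisons share libraries. The widest AA ratio was that of *Slc7a1*, at a log2 of 0.57 with DMSO and 0.04 with GSK-J4, from the libraries given above. *Slc1a4* had 0.28 and 0.34, and *Got1* 0.16 and 0.28. At the low end by the mean of both AA ratios, *Aldh18a1* had -0.44 and 0.03, *Rars* -0.20 and 0.01 and *Mthfd1* -0.03 and -0.11. *Cbs* had 0.19 and -0.27, the latter being the lowest with GSK-J4. With DMSO, 22 of 39 members were higher with AA, and with GSK-J4, 35 of 40, of which 17 were synthetases out of 18. Of all genes tested, 37.6% and 44.6% were higher. The count with DMSO went to 27 after centring and to 30 after scaling to the same total, and the count with GSK-J4 to 36 under both. The synthetase ratios with GSK-J4 were small, between -0.03 and 0.20.

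**Figure D4:**
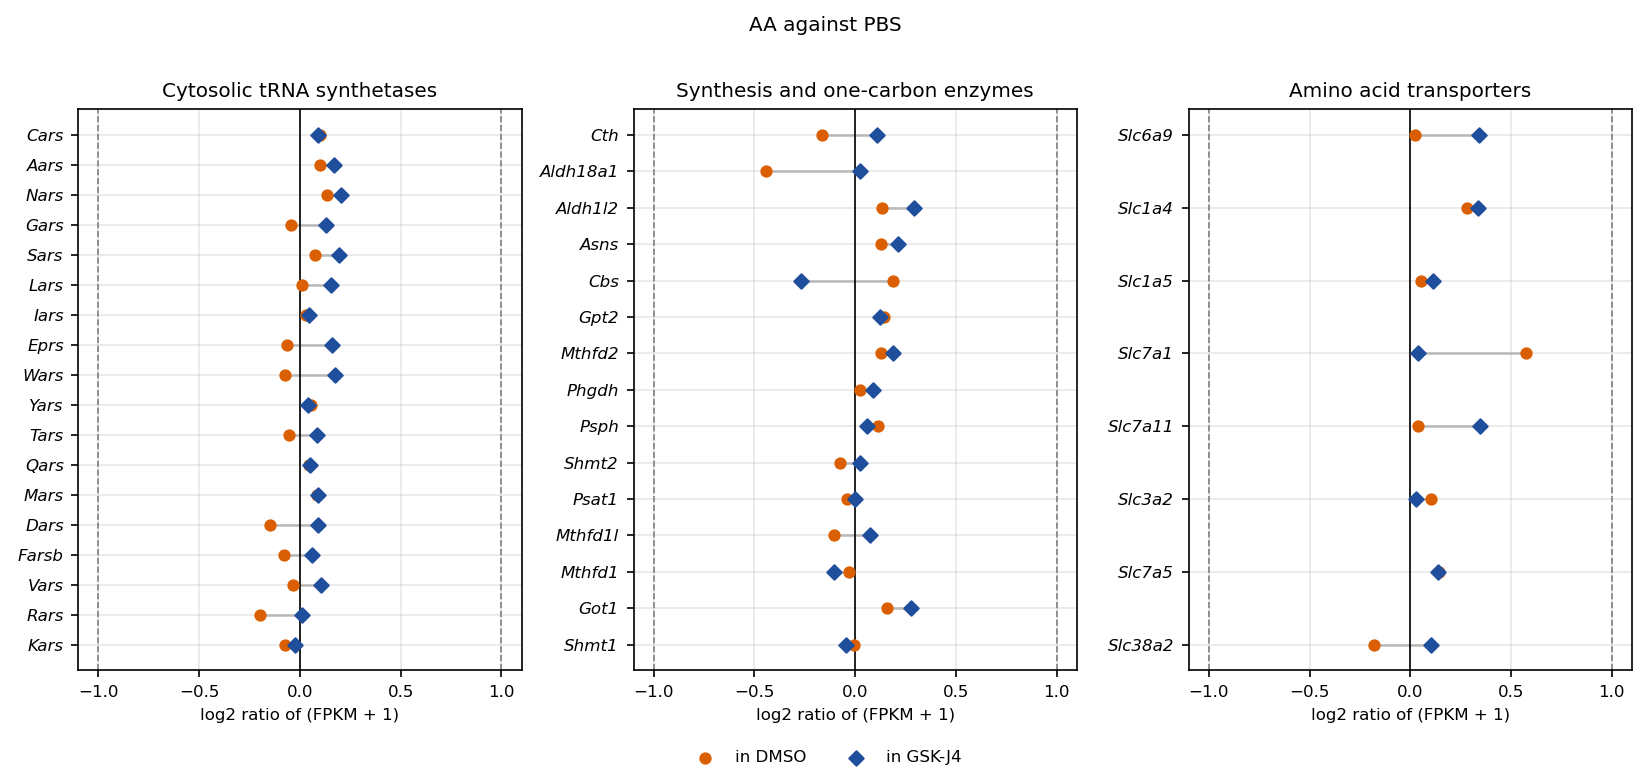
Log2 ratio of FPKM plus 1 for AA against PBS, with DMSO and with GSK-J4, for the 41 genes with a value in 3 panels, with dashed lines at the 2-fold threshold and no error bars because each condition was 1 library. All points lie within the lines, the farthest being Slc7a1 with DMSO at 0.57. Slc7a11 was below the filter on FPKM in all libraries and Aldh1l2 in the DMSO libraries.

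The response to GSK-J4 was set side by side without and with AA for each gene. As deposited, of the 40 genes, 23 were higher with GSK-J4 in both comparisons, 13 lower in both and 4 in opposite directions. The ratio with AA minus that without AA had a median of 0.07 on the log2 scale and a range of -0.54 for *Slc7a1* to 0.47 for *Aldh18a1*, and 34 of 40 genes lay within 0.25 of 0. *Cbs* had -0.46, and its FPKM with GSK-J4 was 12.5 without AA and 10.2 with AA. The synthetases were the narrowest list, from -0.01 to 0.25. Without replicates, the size of these differences cannot be set against error.

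Other genes of the same pathways were taken from 5 further lists of 87 genes, of which 71 had a value. These lists, like those of the members, were chosen with earlier results of these data known. None of 16 mitochondrial tRNA synthetases was called, where 4.96% and 4.13% of all genes were called higher and 3.50% and 3.38% lower. As deposited, 13 of the 16 were lower and 3 higher in each comparison, where 37.0% and 37.8% of all genes were higher. Their median log2 ratios were -0.36 and -0.26 as deposited. These became -0.02 and -0.01 after scaling to the same total and -0.27 and -0.25 against the median of equally expressed genes. The lowest of them was the tyrosine enzyme *Yars2*, at 24.4 FPKM with DMSO and 12.2 with GSK-J4 in the absence of AA, and at 21.1 and 10.5 in its presence, with log2 ratios of -0.95 in both. The highest by the mean of both comparisons was the leucine enzyme *Lars2*, with 0.09 and 0.68. Of 28 other amino acid and folate enzymes tested, 1 was called in each comparison, and lower, or 3.57%, near the 3.50% and 3.38% of all genes. None was called higher, where 4.96% and 4.13% of all genes were. The gene called was *Mat2a*, which makes S-adenosylmethionine, at 91.8, 29.6, 78.3 and 32.5 FPKM, with log2 ratios of -1.60 and -1.24. The median of this list was -0.53 and -0.43 as deposited, -0.16 and -0.14 after scaling to the same total and -0.09 and -0.02 against the median of equally expressed genes. Its highest gene by the mean of both comparisons was the urea cycle enzyme *Ass1*, with 0.32 and 0.37.

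Of 11 other amino acid transporters, 2 were called higher without AA and 1 with AA, or 18.2% and 9.09%, where 4.96% and 4.13% of all genes were. None was called lower, where 3.50% and 3.38% of all genes were. *Slc38a7*, a glutamine transporter, was at 7.16, 24.8, 11.4 and 21.5 FPKM, with log2 ratios of 1.66 and 0.86. *Slc1a1*, a glutamate transporter, was at 1.53, 4.96, 2.09 and 5.72 FPKM, with log2 ratios of 1.24 and 1.12. The lowest by the mean of both comparisons was *Slc38a4*, with -0.42 and -0.27.

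Among 12 genes that sense amino acid shortage or relay the stress response, 4 were called higher in both comparisons and none lower, against 4.96% and 4.13% of all genes higher and 3.50% and 3.38% lower. *Ddit3*, the transcription factor CHOP, was at 6.64 FPKM with DMSO and 63.7 with GSK-J4 in the absence of AA, and at 7.45 and 74.99 in its presence, with log2 ratios of 3.08 and 3.17. *Trib3*, a pseudokinase, was at 4.10, 28.2, 7.34 and 34.3 FPKM, with 2.52 and 2.08. *Chac1*, which breaks down glutathione, was at 4.41, 21.6, 5.94 and 24.1 FPKM, with 2.07 and 1.85. *Sesn2*, which binds leucine and restrains mTORC1, was at 39.8, 84.1, 40.0 and 85.5 FPKM, with 1.06 and 1.08. In all 4 genes both GSK-J4 libraries were above both DMSO libraries. *Atf4*, the transcription factor itself, was at 159, 257, 164 and 279 FPKM, a log2 ratio of 0.69 and 0.77, and was not called. *Eif2s1*, the phosphorylated subunit of eIF2, was the lowest of the list, with -0.93 and -0.77. *Ddit3* overlaps the synthetase *Mars* on the opposite strand over 2.29% of the exonic bases of *Mars*, whose own log2 ratio was -0.26 in both comparisons.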

How the data were processed

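Per the labels and the study's methods, total RNA of 4 samples was sequenced. The authors removed duplicates from single-end reads, aligned them with TopHat2 to mm10 and computed FPKM with Cufflinks2. The versions and the strand setting are not given in the sources used here. The FPKM columns of the 2 deposited tables are headed log10 but hold linear values. Their fold change, p-value and q-value columns were not used.

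FPKM was summed over the 11033 coding sequence groups into 9936 gene names, of which 157 with a failed estimate were left out. Samples were grouped by their labels, with 1 library per condition, so ratios were described without tests. The members and lists were chosen with earlier results of these data known. Named genes were those called for GSK-J4 in each member list and its 3 highest and 3 lowest, the 3 highest and 3 lowest members for AA, and in each pathway list those called in both comparisons and the highest and lowest. Highest and lowest are by the mean log2 ratio of both comparisons. Further members stand with their values. Alternatives were pseudocounts of 0.1 and 5, no filter, an FPKM of at least 5, centring, upper quartile and total scaling, 1.5-fold and 4-fold thresholds and the top coding sequence group alone. Subtraction of the expression group's median, and an FPKM of at least 1 in the DMSO or PBS library, were added after seeing the data. The scripts were tested on simulated data.

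The depth is unknown, since the tables hold no counts. Low values gave no usable steps of whole reads: in AA+DMSO against PBS+DMSO, 21.4% of 131 genes under 0.3 FPKM fell on steps within 0.6%. Gene positions and exon overlaps are from GENCODE M21, and promoter sequences from RefSeq. Some promoter sequence is not reported here. Tables were computed in pandas 2.3.3 and numpy 2.4.6 under Python 3.11.15, and plots drawn with matplotlib 3.10.9.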

Additional observations from a re-analysis of the deposited data

Results flagged for a closer look

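Cars2, the mitochondrial cysteine tRNA synthetase, was listed because its ratios went past 1.2-fold in opposite directions under the same contrast. It was at 15.6 FPKM with DMSO and 8.71 with GSK-J4 in the absence of AA, and at 8.71 and 12.2 in its presence. The log2 ratio for GSK-J4 was -0.78 without AA and 0.44 with AA, a difference of 1.22. The log2 ratio for AA was -0.78 with DMSO and 0.44 with GSK-J4, and its difference is the same 1.22, since both are made from the same 4 values. With 1 library per condition this difference was not tested. No member of the 3 main lists met the same rule.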

How the results depend on the processing

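No paired analysis was possible because the labels give no replicate numbers and each condition was 1 library. The counts of members at least 2-fold higher were 8 without AA and 7 with AA, and none was lower. At 1.5-fold, 13 and 12 were higher, 5 and 6 lower, and 8 enzymes were higher in each comparison. Of all genes, 11.6% and 10.1% were higher and 19.3% and 17.8% lower at 1.5-fold. At 4-fold, 0 and 1 members were higher, with 0 and 1 transporters, 0 enzymes and 0 synthetases in each, against 0.52% and 0.42% of all genes. With a pseudocount of 5, 1 and 3 members were higher, with 1 and 2 enzymes, 0 and 1 transporters and 0 synthetases in each. Of all genes, 1.22% and 1.08% were higher with it. An FPKM of at least 5 left 2 enzymes with AA, against 3.27% of all genes. Scaling to the same total gave 11 members with AA and 7 enzymes in each comparison, against 8.74% of all genes without AA and 6.85% with AA. The top coding sequence group alone gave 0 synthetases higher and 1 member lower without AA, against 5.08% of all genes higher and 3.64% lower. Subtraction of the expression group's median, chosen after seeing the data, gave 12 members and 8 enzymes with AA and 5 transporters without AA. Of all genes, 4.25% with AA and 5.25% without AA were higher after it. The cause was not tested. Within 1.5 times of the main counts were those under a pseudocount of 0.1, no filter, centring, the upper quartile and an FPKM of at least 1 in the DMSO or PBS library, the last also chosen after seeing the data. Of the 40 members tested, 28 without AA and 33 with AA kept the sign of their GSK-J4 ratio under every alternative.

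Over all genes without AA, 456 were at least 2-fold higher and 322 lower as deposited, 618 and 157 after centring, 675 and 125 by upper quartile, 804 and 96 by total, 483 and 185 against the expression group's median, 746 and 509 with a pseudocount of 0.1, 112 and 136 with 5, 253 and 264 at an FPKM of at least 5, 269 and 322 at an FPKM of at least 1 with DMSO, 1063 and 1775 at 1.5-fold and 48 and 6 at 4-fold. With AA, the counts were 377 and 309 as deposited, 511 and 152 after centring, 546 and 121 by upper quartile, 626 and 99 by total, 388 and 211 against the expression group's median, 662 and 493 with a pseudocount of 0.1, 99 and 102 with 5, 207 and 229 at an FPKM of at least 5, 220 and 309 at an FPKM of at least 1 with DMSO, 923 and 1625 at 1.5-fold and 38 and 6 at 4-fold. Depth limits these data in an unknown way.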
